A study of Mus musculus with 15 samples.

Results

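Cyp2a4, Cyp2a5, Cyp2a12, Cyp2a22, Cyp2b9, Cyp2b10 and Cyp2b13 are the mouse cytochrome P450 genes described here. They were taken by gene symbol from 15 deposited liver count tables of 24499 symbols each, and all 7 were present and passed the filter on low counts. Cyp2b13, with 0 to 3 counts in each chow and day 0 library, passed it only through the EtOH libraries, where it is high. In the annotation GENCODE M21 (mouse build mm10) they lie within 1140 kb of chromosome 7, on the plus strand except Cyp2a22, which is on the minus strand. Their spans are 25897620 to 25926624 for Cyp2b10, 26061497 to 26096197 for Cyp2b13 and 26173411 to 26210661 for Cyp2b9. Cyp2a4 spans 26307169 to 26315088, Cyp2a5 26835305 to 26843548, Cyp2a22 26931631 to 26939384 and Cyp2a12 27029081 to 27037375.

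The study modelled acute-on-chronic alcoholic liver injury in adult male C57BL/6 mice, with messenger RNA sequenced from whole liver. CCl4 is a solvent that liver P450 enzymes turn into a toxic radical, and it was injected at 0.2 ml/kg 2 times a week over 6 weeks. EtOH then ran through a stomach tube for 3 weeks, up to 25 g/kg a day, with or without a lower dose of CCl4. The labels give the EtOH arms a high-fat diet (HFD) and their controls chow, so each EtOH comparison is a diet comparison as well. Libraries are called by the numbers in their labels. At day 20 the groups were CCl4 with EtOH and HFD (libraries 18, 19 and 20), CCl4 with chow (16 and 17), OO with EtOH and HFD (13, 14 and 15) and OO with chow (12). At day 23 they were OO with EtOH and HFD (6) and OO with chow (5), and at day 0 CCl4 (3 and 4) and OO (1 and 2). The labels do not spell out OO, the treatment of the mice without CCl4. The day 20 labels repeat CCl4 or OO for the second phase, and the day 23 labels, which carry the mark of another substudy, do not. Nothing in the labels ties each library to an animal of its own, so the p-values speak only of how far these samples spread.

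Cyp2a and Cyp2b enzymes sit in the membrane of the endoplasmic reticulum, take electrons from the P450 reductase Por, and oxidise drugs, steroids and plant compounds. Cyp2b10 is the classic target of the nuclear receptor CAR (gene Nr1i3), through which phenobarbital and related compounds raise P450 genes in mouse liver. Cyp2a5 is the coumarin 7-hydroxylase, which also oxidises nicotine, and Cyp2a4 is a steroid 15-alpha-hydroxylase. Cyp2a4, Cyp2b9 and Cyp2b13 are known in mouse liver as genes expressed more in females than in males. Roles of Cyp2a12 and Cyp2a22 are less settled, although Cyp2a12 is known to hydroxylate bile acids in the mouse.

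The members come in near-identical pairs, and the pair Cyp2a4 and Cyp2a5 carries the sharpest contrast of the results. Their promoters are shown first, from 250 bases before to 50 bases after the RefSeq gene start on GRCm38.p6, both on the plus strand of chromosome 7 (Cyp2a4 at chr7:26306942-26307241, Cyp2a5 at chr7:26835089-26835388). Capitals mark the bases that differ between them, and 1 base near an end of each window that has no partner in the other.
Cyp2a4: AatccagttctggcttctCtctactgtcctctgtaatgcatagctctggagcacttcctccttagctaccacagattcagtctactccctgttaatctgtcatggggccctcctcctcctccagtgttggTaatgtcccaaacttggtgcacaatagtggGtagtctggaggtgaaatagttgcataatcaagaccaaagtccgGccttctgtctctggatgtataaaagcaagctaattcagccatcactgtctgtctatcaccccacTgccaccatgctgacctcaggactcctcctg
Cyp2a5: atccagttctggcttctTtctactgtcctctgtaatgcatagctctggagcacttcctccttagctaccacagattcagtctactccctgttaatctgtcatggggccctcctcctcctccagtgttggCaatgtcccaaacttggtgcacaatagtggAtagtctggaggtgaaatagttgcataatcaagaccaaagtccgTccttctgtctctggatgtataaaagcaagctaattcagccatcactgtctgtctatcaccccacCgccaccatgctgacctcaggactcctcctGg
Of 299 aligned bases 5 differed. Counted from 1 at the first base of the Cyp2a5 window, with the Cyp2a5 base first, they were T18C, C130T, A160G, T204G and C269T.

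The coding sequences of the pair differed at 23 of 1482 bases (98.4% identity, GENCODE M21 transcripts). Coding bases 596 to 655 are shown because 4 differences fall within these 60 bases, again in capitals.
Cyp2a4: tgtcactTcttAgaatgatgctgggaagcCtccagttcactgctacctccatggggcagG
Cyp2a5: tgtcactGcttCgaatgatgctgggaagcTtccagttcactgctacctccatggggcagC
Counted from the first base of the start codon, the changes were G603T, C607A, T625C and C655G, the Cyp2a5 base first. T625C lies in codon 209, the position at which enzyme engineering in the mouse placed the switch between steroid and coumarin as substrate.

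Cyp2b9 and Cyp2b13 have promoters closer still, with 2 differing bases of 300 (Cyp2b9 at chr7:26173159-26173458, Cyp2b13 at chr7:26061245-26061544, plus strand, RefSeq GRCm38.p6). They are shown because the genes responded in the same arms at different levels. Capitals mark the 2 bases, T48C and C104T, counted from 1 at the first base of the window with the Cyp2b9 base first.
Cyp2b9: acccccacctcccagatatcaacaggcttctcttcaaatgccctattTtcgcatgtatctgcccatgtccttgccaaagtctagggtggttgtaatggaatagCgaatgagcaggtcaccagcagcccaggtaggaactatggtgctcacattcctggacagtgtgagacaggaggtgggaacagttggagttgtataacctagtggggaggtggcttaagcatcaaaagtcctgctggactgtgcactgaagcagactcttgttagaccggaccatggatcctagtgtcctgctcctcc
Cyp2b13: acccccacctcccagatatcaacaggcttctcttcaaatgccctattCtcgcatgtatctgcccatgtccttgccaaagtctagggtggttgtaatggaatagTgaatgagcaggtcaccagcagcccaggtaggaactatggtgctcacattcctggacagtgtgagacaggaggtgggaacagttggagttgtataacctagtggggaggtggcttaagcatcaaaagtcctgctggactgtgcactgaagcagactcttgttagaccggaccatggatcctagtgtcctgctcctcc
Cyp2b10 differed from either at 66 of 289 aligned promoter bases (77.2% identity). The Cyp2a12 and Cyp2a22 promoters, which lie on opposite strands, differed at 27 of 289 aligned bases (90.7% identity). Coding identity was 97.0% for Cyp2a12 and Cyp2a22, 92.7% for Cyp2b9 and Cyp2b13 and 87.8% for Cyp2b9 and Cyp2b10.

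Short motifs were searched on both strands of the 7 promoters, and no 2 matches overlapped. TATAAA, the TATA box, was in all 4 Cyp2a promoters and in none of the 3 Cyp2b promoters, against 13.6% of 32851 RefSeq promoters of the same length. AGGTCA, a nuclear receptor half-site, was in Cyp2a4, Cyp2a5, Cyp2b9 and Cyp2b13 (16.3% of all promoters), and TTGCNNAA, a C/EBP-type core, in those 4 and Cyp2b10 (10.8%). The AGGTCA matches of Cyp2a4 and Cyp2a5 lie after the gene start, at bases 31 and 30, on the opposite strand and behind the start codon. Those of Cyp2b9 and Cyp2b13 lie before the gene start, at base -138. TTCNNNGAA (8.3%), TGACNNNGC (12.4%) and TGTTTAC (3.65%), cores of STAT5, NRF2 and FOXA type, matched none of the 7 windows. The enhancer through which CAR is known to act on Cyp2b10 lies further upstream than these windows.

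The deposited tables keep reads with several alignments in an entry of their own, apart from the genes, so near-identical stretches bear on the levels. Of 100-base stretches of the transcript, 11.2% in Cyp2a4 and 14.4% in Cyp2a5 also occurred in another annotated gene, mainly in each other. The shares were 6.83% for Cyp2a12 and 6.36% for Cyp2a22, shared with each other, 9.29% for Cyp2b13, mainly with the pseudogene Gm45225, 1.18% for Cyp2b9 and 0% for Cyp2b10. With 50-base stretches they ran from 10.2% in Cyp2b10 to 40.8% in Cyp2a5. The read length is not given in the sources used here, so counts of Cyp2a4 and Cyp2a5 in particular are uncertain as levels, while a fixed share lost in every library leaves a fold change between libraries in place.

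The libraries held 10347844 to 28843258 counts assigned to genes (median 13115579). Hepatocyte markers summed to 71280 to 102056 CPM over all libraries, and 0 of the 7 in the tables were called in any comparison. Exocrine pancreas markers summed to 172 CPM in library 6 and 170 CPM in library 12, against 5.52 to 14.0 CPM in the other 13, so the single OO chow library of day 20 stands apart. Of the 6 sequencing lanes that the names of the deposited tables give, no lane held both groups of any comparison, so no comparison can be made within a lane. Lanes did mix groups of different comparisons. Lane 3 held Cyp2b10 at 991 and 1449 CPM in OO EtOH libraries 13 and 14, beside 18.7 CPM in CCl4 chow library 16 and 2.71 CPM in day 0 OO library 2. Lane 4 held it at 569 CPM in CCl4 EtOH library 19, beside 4.27 CPM in OO chow library 12 and 13.1 CPM in day 0 CCl4 library 3. A limma-voom fit with lane as a random block put the correlation within a lane at -0.0818. In whole liver, fewer cells of a type and less RNA per cell cannot be told apart.

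EtOH with HFD in OO mice at day 20 raised all 7 members. Cyp2b10 stood at 991, 1449 and 839 CPM (a count scaled to its library size with TMM factors) in the 3 OO EtOH libraries, against 4.27 CPM in the OO chow library. Every EtOH library was thus far above the chow library, a log2 change of 8.0 ± 0.67 (SE; quasi-likelihood test of edgeR, Benjamini-Hochberg adjusted over 14778 genes, adjusted p = 0.000637). Cyp2b9 stood at 235, 130 and 143 CPM in OO EtOH livers, against 1.03 CPM in the OO chow liver, a log2 change of 7.35 ± 0.81 (edgeR adjusted p = 0.00148). Cyp2b13 was the scarcest, at 38.6, 16.4 and 13.0 CPM in OO EtOH livers, against 0.0790 CPM in the OO chow liver, which is 1 count. The pooled ratio of 851 counts to 1 was 249.7, with an exact 95% counting interval of 44.7 to 9873 that covers counting error only (edgeR adjusted p = 0.011).

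**Figure D1:**
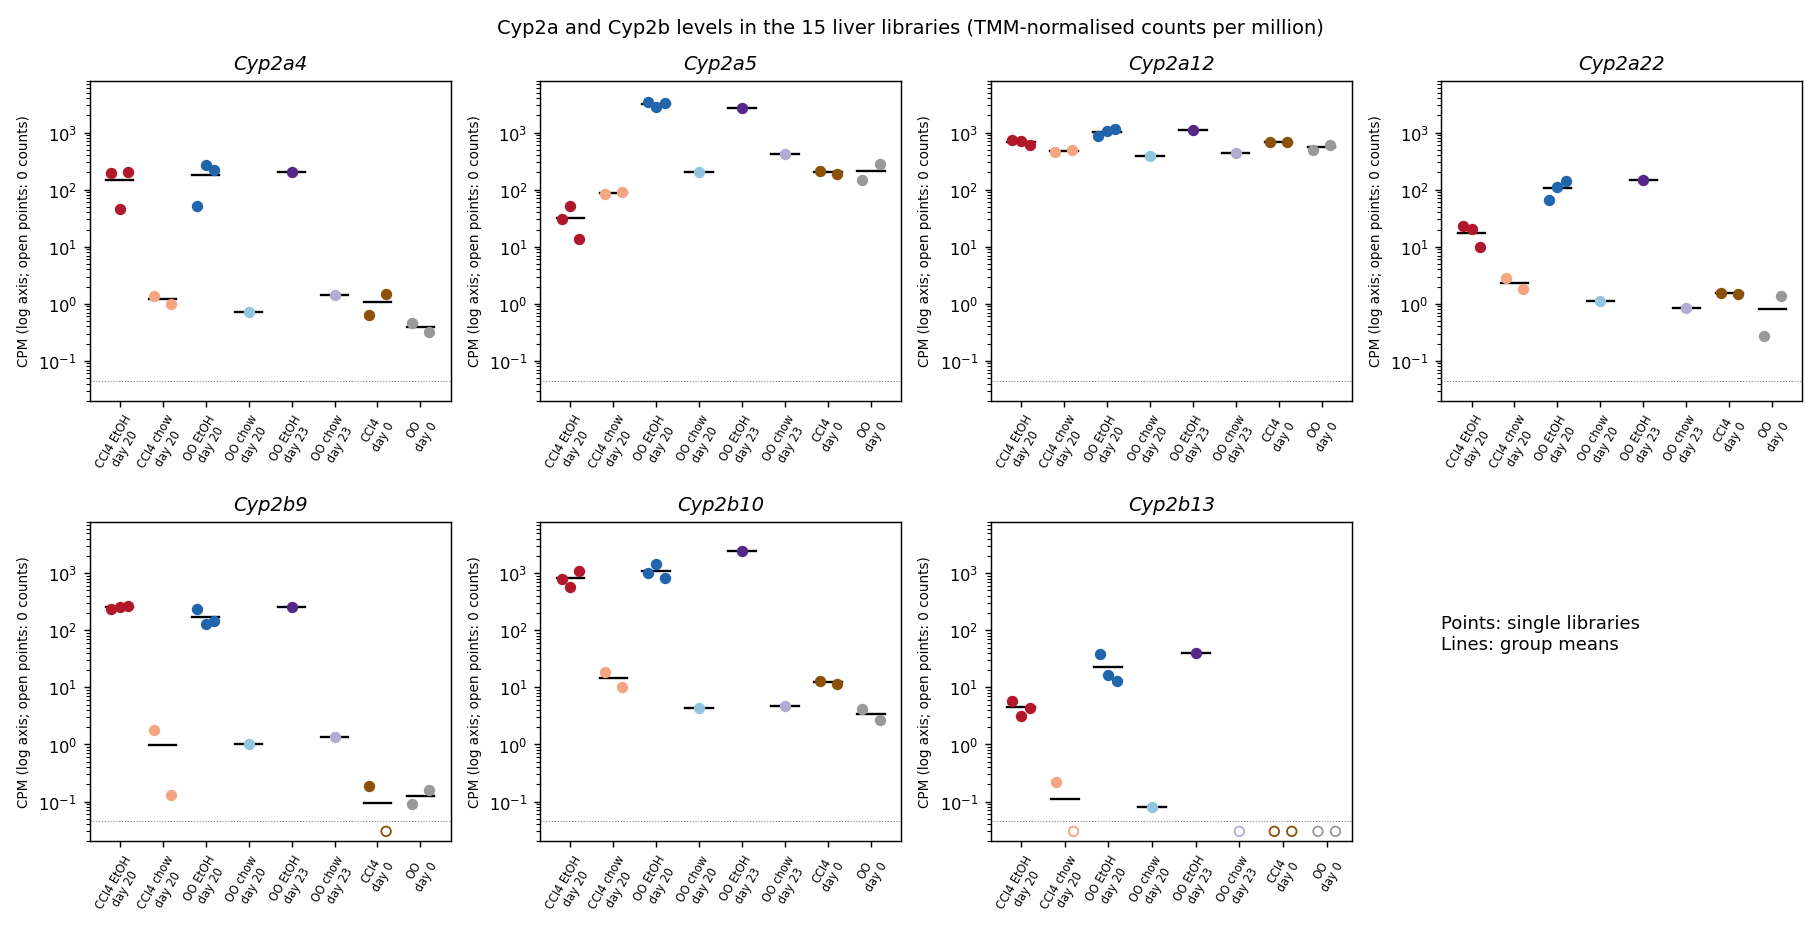
TMM-normalised CPM of each gene (log axis) in all 15 libraries by group, with points for libraries, lines for group means and open points for 0 counts. Cyp2b10, Cyp2b9 and Cyp2a4 are high in every EtOH library, whereas Cyp2a5 is high in OO EtOH livers and lies at 13.8 to 51.0 CPM in CCl4 EtOH livers. Cyp2a22 lies at 65.9 to 141 CPM in OO EtOH livers of day 20 and at 9.85 to 22.7 CPM in CCl4 EtOH livers.

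The Cyp2a genes rose by very different amounts in the same OO livers. Cyp2a5, already abundant on chow, stood at 3450, 2761 and 3303 CPM in OO EtOH livers, against 200.3 CPM in the OO chow liver, a log2 change of 3.98 ± 0.66 (edgeR adjusted p = 0.00988). Its close copy Cyp2a4 stood at 52.2, 268 and 221 CPM in OO EtOH livers, against 0.711 CPM in the OO chow liver, a log2 change of 7.97 ± 1.47 (edgeR adjusted p = 0.0144). Library 13 was the low one for Cyp2a4 and the highest of the 3 for Cyp2a5. Cyp2a22 stood at 65.9, 111 and 141 CPM in OO EtOH livers, against 1.11 CPM in the OO chow liver (log2 change 6.57 ± 0.79, edgeR adjusted p = 0.0019). Cyp2a12 moved least, with 872, 1048 and 1174 CPM in OO EtOH livers and 384 CPM in the OO chow liver (log2 change 1.42 ± 0.23, edgeR adjusted p = 0.00842). For each of the 7 genes the EtOH libraries lay wholly above the chow library. With only 1 chow library this separation is weak evidence, and the share of all genes that separate in this way was not counted. Over all genes tested, 1.22% were called higher and 2.42% lower in this comparison, and the median log2 change was 7.35 for the members and 0.0086 for all genes. The members include Cyp2b13, which passed the filter only through EtOH libraries.

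All of these values rest on 1 chow library, assumed to vary like the other groups, and the one with pancreas RNA. With the day 23 chow library 5 in its place, 6 of 7 were called, and Cyp2a5, higher in that library, had a log2 change of 2.90 (edgeR adjusted p = 0.0656). In a fit of only the 4 libraries compared, 3 of 7 were called (Cyp2a5, Cyp2b9 and Cyp2b10). With limma-voom 5 of 7 were called, without Cyp2a4 (adjusted p = 0.166) and Cyp2b13 (adjusted p = 0.0933). Kupffer cell and macrophage markers differed in this comparison, with 5 of 8 called lower and 0 higher and a summed level of 498 to 636 CPM in OO EtOH livers and 1153 CPM in the OO chow liver. The same sum was 715 CPM in the OO chow library of day 23 and 483 to 539 CPM in OO livers of day 0. All 8 were detected, and their part in the result was not tested.

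The day 23 pair, 1 library each and so without a test, again had its smallest ratios for Cyp2a12 and Cyp2a5. Cyp2b10 had 2432 CPM with EtOH and 4.81 CPM with chow, a ratio of 505. Cyp2b9 had 253 CPM with EtOH and 1.37 CPM with chow (ratio 185), Cyp2a22 149 and 0.845 CPM (ratio 176), and Cyp2a4 204 and 1.43 CPM (ratio 142). Cyp2a5 had 2726 CPM with EtOH and 426 CPM with chow (ratio 6.41), and Cyp2a12 1101 and 442 CPM (ratio 2.49). Cyp2b13 had 39.4 CPM with EtOH and 0 counts with chow, at least 181-fold higher on unscaled counts when 3 counts are taken as the floor of the chow library. All 7 were higher with EtOH, where the share of all genes that were higher was not counted. The EtOH library is one of the 2 with pancreas RNA.

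In CCl4 mice the 3 Cyp2b genes, Cyp2a4 and Cyp2a22 rose with EtOH, and Cyp2a5 was lower without passing the test. Cyp2b10 stood at 799, 569 and 1102 CPM in CCl4 EtOH livers, against 18.7 and 10.3 CPM in CCl4 chow livers, a log2 change of 5.83 ± 0.43 (edgeR adjusted p = 0.000102). Cyp2b9 stood at 234, 257 and 265 CPM in CCl4 EtOH livers, against 1.83 and 0.133 CPM in CCl4 chow livers, a log2 change of 8.04 ± 0.59 (edgeR adjusted p = 0.000102). The 3 EtOH libraries agreed within a narrow range for Cyp2b9, while the chow pair, at a few counts, did not agree. Cyp2b13 reached only 5.86, 3.19 and 4.29 CPM in CCl4 EtOH livers, against 0.219 and 0 CPM in CCl4 chow livers, 242 counts to 3 and a ratio of 42.7 with an exact 95% counting interval of 14.4 to 209 (edgeR adjusted p = 0.0279).

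Cyp2a4 stood at 198, 45.2 and 208 CPM in CCl4 EtOH livers, against 1.39 and 0.996 CPM in CCl4 chow livers (log2 change 6.98 ± 0.98, edgeR adjusted p = 0.00607). Cyp2a22 stood at 22.7, 20.4 and 9.85 CPM in CCl4 EtOH livers, against 2.85 and 1.79 CPM in CCl4 chow livers (log2 change 2.94 ± 0.49, edgeR adjusted p = 0.0166). Cyp2a12 had 734, 704 and 595 CPM in CCl4 EtOH livers and 448 and 497 CPM in CCl4 chow livers, a log2 difference of 0.52 ± 0.17 that was not called (edgeR adjusted p = 0.216). Cyp2a5 was the one member on the other side, with 30.6, 51.0 and 13.8 CPM in CCl4 EtOH livers and 82.5 and 92.2 CPM in CCl4 chow livers. The 2 groups did not overlap for Cyp2a5, but its log2 difference of -1.45 ± 0.41 was not called (edgeR adjusted p = 0.139; 0.00813 to 0.413 over 13 alternatives, 2 of which called it).

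In CCl4 livers EtOH thus gave 5 of 7 members called higher and 0 lower, where 0.501% of all genes were called higher and 0.765% lower. The 5 include Cyp2b13, which passed the filter only through EtOH libraries. The median log2 change was 5.31 for the members and 0.0079 for all genes. Leaving out library 16 or library 17, the 2 chow libraries, left 2 calls each, Cyp2b9 and Cyp2b10.

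**Figure D2:**
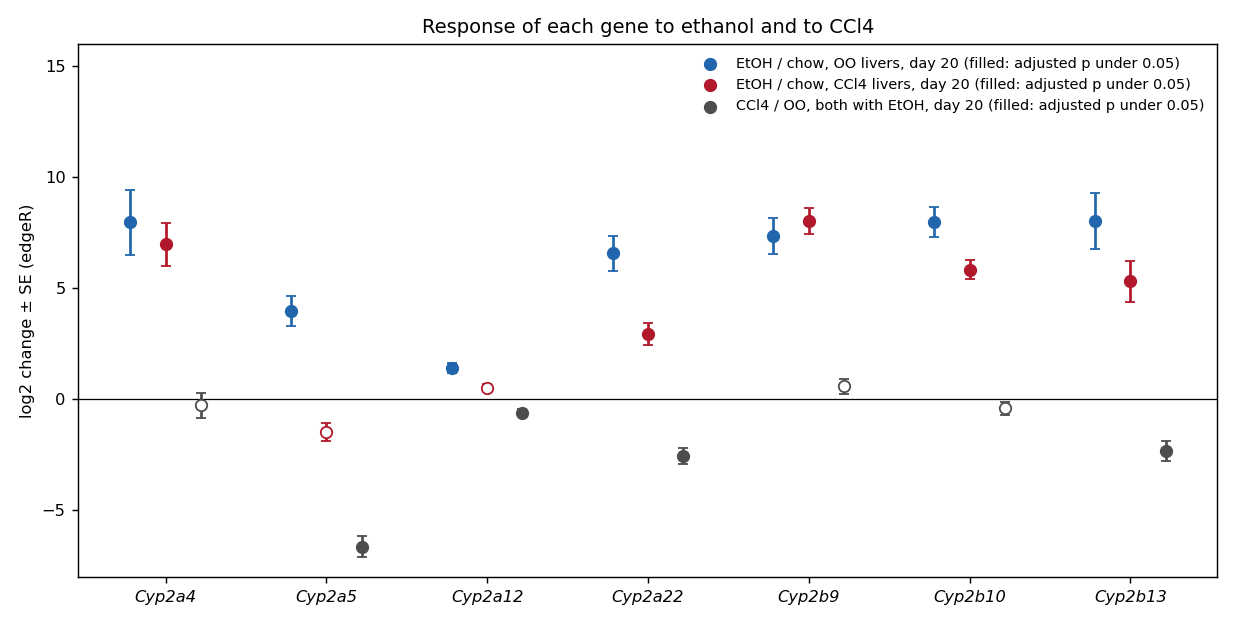
log2 change ± SE of each gene (edgeR) for EtOH against chow in OO livers and in CCl4 livers, and for CCl4 against OO livers that both had EtOH, all at day 20, with filled points for an adjusted p under 0.05. Cyp2a5 lies at 3.98, -1.45 and -6.63, and the other 6 genes are above 0 in both EtOH comparisons.

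Livers given EtOH differed by CCl4 for 4 of 7 members, all lower in CCl4 livers, where 12.7% of all genes were called higher and 11% lower. Cyp2a5 averaged 31.8 ± 18.6 CPM in CCl4 EtOH livers and 3171 ± 363 CPM in OO EtOH livers (SD, n = 3 each), and it fell by 6.63 ± 0.46 on the log2 scale (edgeR adjusted p = 2.8e-05). Cyp2a22 averaged 17.6 ± 6.86 CPM in CCl4 EtOH livers and 106 ± 37.7 CPM in OO EtOH livers (log2 change -2.57 ± 0.36, edgeR adjusted p = 0.000555). Cyp2b13 averaged 4.45 ± 1.35 CPM in CCl4 EtOH livers and 22.7 ± 13.9 CPM in OO EtOH livers (log2 change -2.33 ± 0.45, edgeR adjusted p = 0.00547). Cyp2a12 averaged 678 ± 73.0 CPM in CCl4 EtOH livers and 1031 ± 152 CPM in OO EtOH livers (log2 change -0.61 ± 0.15, edgeR adjusted p = 0.0123; not called without library 15 or library 20, with adjusted p of 0.0558 and 0.05004, nor in a fit of the 2 groups alone, 0.0586). For these 4 the libraries of the 2 groups did not overlap, and the share of all genes without overlap was not counted.

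The 3 members with overlapping libraries were not called. Cyp2b10 averaged 823 ± 268 CPM in CCl4 EtOH livers and 1093 ± 318 CPM in OO EtOH livers (log2 difference -0.41 ± 0.29, edgeR adjusted p = 0.34). Cyp2a4 averaged 150.3 ± 91.1 CPM in CCl4 EtOH livers and 180.5 ± 114 CPM in OO EtOH livers (-0.27 ± 0.57, edgeR adjusted p = 0.775). Cyp2b9 averaged 252 ± 16.0 CPM in CCl4 EtOH livers and 169 ± 57.1 CPM in OO EtOH livers (0.58 ± 0.33, edgeR adjusted p = 0.236). The median log2 change was -0.61 over the members and -0.04 over all genes.

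Pericentral hepatocyte markers moved with this comparison. The 10 of them, genes of the cells around the central vein, summed to 1652 to 2952 CPM in CCl4 EtOH livers and 6476 to 10096 CPM in OO EtOH livers, 7 of 10 were called lower and 0 higher, and all 10 were detected. Glul, the glutamine synthetase of those cells, averaged 152 ± 55.1 CPM in CCl4 EtOH livers and 669 ± 159 CPM in OO EtOH livers (log2 change -2.14 ± 0.25, edgeR adjusted p = 0.000218). In the same 10 markers the sum was 3376 to 3790 CPM in CCl4 chow livers and 8650 CPM in the OO chow liver. Markers of other cell types moved too. Stellate cell and myofibroblast markers were called higher in 5 of 8 and lower in 0, and summed to 607 to 1113 CPM in CCl4 EtOH livers and 216 to 360.1 CPM in OO EtOH livers. Kupffer cell and macrophage markers were called higher in 4 of 8 and lower in 1, and summed to 686 to 849 CPM in CCl4 EtOH livers and 498 to 636 CPM in OO EtOH livers. Cholangiocyte markers were called higher in 3 of 6 and lower in 0, and summed to 387 to 597 CPM in CCl4 EtOH livers and 46.0 to 75.1 CPM in OO EtOH livers. Every marker of these 3 lists was detected. The part of these markers in the 4 calls was not tested.

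In CCl4 EtOH livers Cyp2a4 outnumbered its near-identical copy Cyp2a5 in 2 of 3 libraries and came close to it in library 19. Cyp2a4 had 4692, 738 and 2467 counts to 726, 832 and 164 of Cyp2a5 in the 3 CCl4 EtOH libraries, ratios of 6.46, 0.887 and 15.0. In the 3 OO EtOH libraries it had 527, 5142 and 2494 counts to 34819, 52891 and 37307, ratios of 0.0151, 0.0972 and 0.0669. On chow the ratio was 0.0168 and 0.0108 in CCl4 livers and 0.00355 in the OO liver, and at day 0 it was 0.0029 and 0.0079 in CCl4 livers and 0.00316 and 0.00115 in OO livers. The log2 ratio averaged 2.14 ± 2.10 in CCl4 EtOH livers and -4.44 ± 1.42 in OO EtOH livers (SD, n = 3 each), a difference of 6.58. The groups did not overlap, and the two-sided exact permutation p was 0.1, the smallest that 3 against 3 libraries allow. The ratio and its test were not planned and were added after seeing the data. Every CCl4 EtOH library lay above every library of the other 7 groups.

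**Figure D3:**
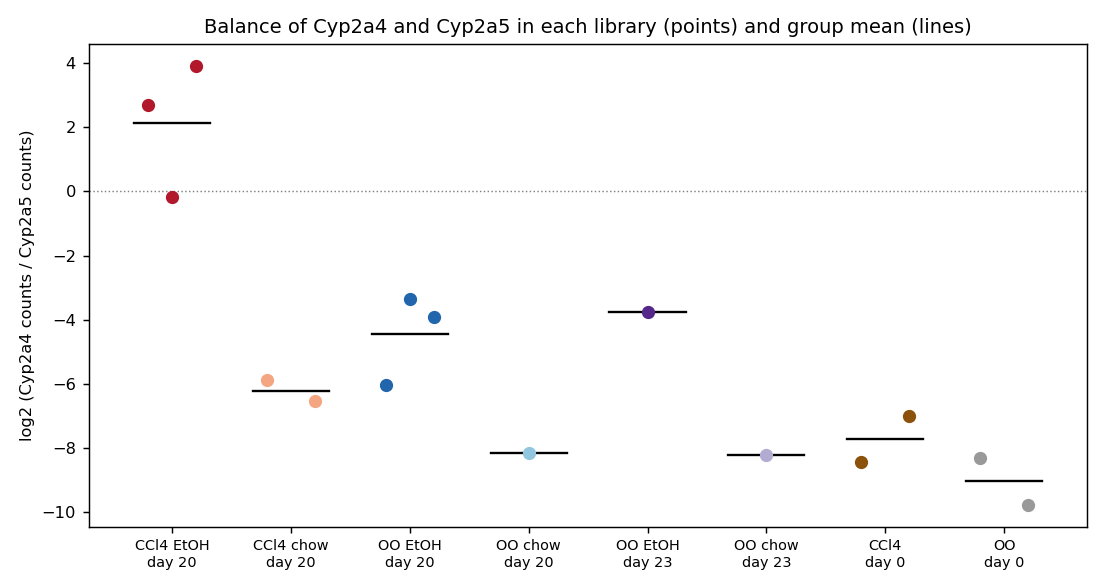
log2 ratio of Cyp2a4 counts to Cyp2a5 counts in each library (points) and group mean (lines), with equal counts at the dotted line. The 3 CCl4 EtOH libraries lie between -0.17 and 3.91, above all other libraries, which reach at most -3.36.

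Whether the EtOH effect differed between CCl4 and OO mice was tested as an interaction, which called 0 of 7 members (edgeR; 4 of 7 at an unadjusted p under 0.05). Over all genes, 0% were called with a higher EtOH effect in CCl4 mice and 0.0135% with a lower one. The largest difference among the members was that of Cyp2a5, -5.44 ± 0.78 on the log2 scale (edgeR adjusted p = 0.0701). It was -4.35 to -5.95 over 18 alternatives and past the threshold in 8 of them. The differences were -3.63 ± 0.90 for Cyp2a22 (edgeR adjusted p = 0.187), -2.17 ± 0.60 for Cyp2b10 (0.238) and -0.90 ± 0.27 for Cyp2a12 (0.296). For Cyp2a4 it was -1.0 ± 1.85, for Cyp2b9 0.69 ± 1.03 and for Cyp2b13, at a few counts on chow, -2.70 ± 2.43. DESeq2 called 4 of the 7.

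CCl4 without EtOH moved no member past the threshold. At day 0 Cyp2b10 stood at 13.1 and 11.5 CPM in CCl4 livers, against 4.22 and 2.71 CPM in OO livers, a log2 difference of 1.84 ± 0.42 just short of the threshold (edgeR adjusted p = 0.0508; 0.000142 to 0.285 over 12 alternatives, 3 of which called it). Cyp2a5 had 216 and 188 CPM in CCl4 livers and 145 and 278 CPM in OO livers (log2 difference -0.07 ± 0.44, edgeR adjusted p = 0.969). Cyp2a12 had 671 and 671 CPM in CCl4 livers and 494 and 606 CPM in OO livers (0.29 ± 0.18, edgeR adjusted p = 0.467). Cyp2a4 and Cyp2a22 stayed at or under 1.57 CPM in all 4 libraries. Cyp2b9 had 3 counts in CCl4 livers and 3 counts in OO livers, and Cyp2b13 had 0 counts in all 4. The call count was 0 of 7 (edgeR; 1 at an unadjusted p under 0.05), where 0.947% of all genes were called higher and 1.11% lower.

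At day 20 on chow the count was again 0 of 7 for CCl4 against OO (edgeR; 2 at an unadjusted p under 0.05), where 0.0203% of all genes were called higher and 0.169% lower. Cyp2b10 had 18.7 and 10.3 CPM in CCl4 livers and 4.27 CPM in the OO liver (log2 difference 1.76 ± 0.53, edgeR adjusted p = 0.383). Cyp2a5 had 82.5 and 92.2 CPM in CCl4 livers and 200.3 CPM in the OO liver (-1.20 ± 0.53, edgeR adjusted p = 0.702). With library 5 as the OO chow library Cyp2a5 was called lower, at -2.28 (edgeR adjusted p = 0.0476). Between day 20 on chow and day 0 in CCl4 mice 0 of 7 were called (edgeR; 3 at an unadjusted p under 0.05), where 7.27% of all genes were called higher and 4.2% lower. Cyp2a5 had 82.5 and 92.2 CPM at day 20 and 216 and 188 CPM at day 0 (-1.21 ± 0.45, edgeR adjusted p = 0.111), and Cyp2a12 448 and 497 CPM at day 20 and 671 and 671 CPM at day 0 (-0.51 ± 0.18, edgeR adjusted p = 0.0962). Cyp2b9, at 27 counts and 3 counts, had a ratio of 9.3 with an exact 95% counting interval of 2.86 to 47.9 (edgeR adjusted p = 0.146), and 1.83 of its CPM came from library 16 against 0.133 CPM in library 17.

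Levels can be set between genes only per length, here as CPM per kb of annotated exons. In OO EtOH livers Cyp2a5 led with 1530 ± 175, followed by Cyp2b10 at 518 ± 150.4, Cyp2a12 at 298 ± 43.9, Cyp2a4 at 104 ± 65.4, Cyp2b9 at 90.3 ± 30.4, Cyp2a22 at 30.8 ± 10.9 and Cyp2b13 at 12.1 ± 7.43 CPM per kb (SD, n = 3). Cyp2a4 and Cyp2b9 did not differ beyond their spread. In CCl4 EtOH livers Cyp2b10 led with 389.7 ± 127, then Cyp2a12 at 196 ± 21.1, Cyp2b9 at 134 ± 8.51, Cyp2a4 at 86.5 ± 52.4, Cyp2a5 at 15.3 ± 8.99, Cyp2a22 at 5.12 ± 1.99 and Cyp2b13 at 2.37 ± 0.72 CPM per kb (SD, n = 3). Cyp2a5 thus led in OO EtOH livers and came after 4 others in CCl4 EtOH livers. On chow at day 20 Cyp2a12 came first, at 137 ± 10.1 CPM per kb in CCl4 livers (SD, n = 2) and 111 in the OO liver, with Cyp2a5 next at 42.1 ± 3.31 in CCl4 livers and 96.6 in the OO liver, and all other members at or under 6.85 CPM per kb. In the OO chow library of day 23 Cyp2a5 came first at 205.3 and Cyp2a12 next at 128 CPM per kb, an order that was the other way round over the coding transcript alone (211 and 263 CPM per kb). Exon lengths of Cyp2a12 and Cyp2a22 include retained introns. Over the coding transcript alone Cyp2a12 stood at 614 ± 90.2 and Cyp2b10 at 600.0 ± 174 CPM per kb in OO EtOH livers, which exchanges their places within the spread.

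Summed over the 4 Cyp2a genes, the level was 878 ± 93.5 CPM in CCl4 EtOH livers (n = 3), 563 ± 40.7 CPM in CCl4 chow livers (n = 2), 4489 ± 328 CPM in OO EtOH livers (n = 3) and 586 CPM in the OO chow liver. Over the 3 Cyp2b genes it was 1080 ± 274 CPM in CCl4 EtOH livers, 15.6 ± 7.27 CPM in CCl4 chow livers, 1285 ± 301 CPM in OO EtOH livers and 5.37 CPM in the OO chow liver. Within Cyp2a, Cyp2a4 held 16.9 ± 10.2% of counts in CCl4 EtOH livers and 4.05 ± 2.65% in OO EtOH livers, and Cyp2a5 held 3.66 ± 2.32% in CCl4 EtOH livers and 70.6 ± 6.23% in OO EtOH livers (SD, n = 3 each). Within Cyp2b, Cyp2b10 held 75.3 ± 6.04% in CCl4 EtOH livers and 84.5 ± 6.23% in OO EtOH livers. These sums and shares are not divided by gene length, so they set groups, and not genes, side by side.

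The receptor and its partners were measured beside the family. Nr1i3, which encodes CAR, averaged 137 ± 18.9 CPM in OO EtOH livers (SD, n = 3) and 47.1 CPM in the OO chow liver, a log2 change of 1.54 ± 0.34 (edgeR adjusted p = 0.0336). The day 23 libraries had 146 CPM of Nr1i3 with EtOH and 71.3 CPM with chow. In CCl4 livers it averaged 48.2 ± 14.6 CPM with EtOH (SD, n = 3) and 32.4 ± 0.44 CPM with chow (SD, n = 2; log2 difference 0.58 ± 0.25, edgeR adjusted p = 0.397). Between EtOH livers it fell by 1.51 ± 0.22 on the log2 scale with CCl4 (edgeR adjusted p = 0.000834). In that comparison 4 of 7 members were called lower (Cyp2a5, Cyp2a22, Cyp2b13 and Cyp2a12), and Cyp2b10, Cyp2b9 and Cyp2a4 were not called. Por averaged 317 ± 84.0 CPM in OO EtOH livers and 105 CPM in the OO chow liver, a log2 difference of 1.59 ± 0.41 short of the threshold (edgeR adjusted p = 0.0586). Por fell by 1.05 ± 0.26 in CCl4 EtOH livers against OO EtOH livers (edgeR adjusted p = 0.0142). Of the 11 regulators listed, 2 rose with EtOH in OO livers (Nr1i3 and Cebpa), 0 were called with EtOH in CCl4 livers, and 6 fell with CCl4 under EtOH. Over all genes 1.22% were called higher in the first of these comparisons and 11% lower in the last. Nr1i2, which encodes the related receptor PXR, and Hnf4a, a hepatocyte factor, were called in none of these 3.

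Of 35 other genes known to respond to CAR or PXR, 16 were called higher and 0 lower with EtOH in OO livers, with a median log2 change of 1.63. Over all genes 1.22% were called higher and 2.42% lower there, with a median of 0.0086. Cyp2c29, an abundant P450, averaged 8978 ± 694 CPM in OO EtOH livers (SD, n = 3) and 1018 CPM in the OO chow liver (log2 change 3.14 ± 0.29, edgeR adjusted p = 0.000773). Cbr3, a carbonyl reductase, averaged 26.4 ± 8.57 CPM in OO EtOH livers and 0.869 CPM in the OO chow liver (log2 change 4.91 ± 0.51, edgeR adjusted p = 0.000998). Abcc4, an export pump, had a log2 change of 3.49 ± 0.31 (edgeR adjusted p = 0.000643) and Cyp2c55 4.20 ± 0.44 (0.00107). In CCl4 livers 8 of 35 were called higher with EtOH and 1 lower, with a median of 0.51. Over all genes 0.501% were called higher and 0.765% lower there, with a median of 0.0079. Cyp2c29 averaged 5557 ± 988 CPM in CCl4 EtOH livers (SD, n = 3) and 299 ± 28.7 CPM in CCl4 chow livers (SD, n = 2; log2 change 4.21 ± 0.23, edgeR adjusted p = 1.11e-05). Cbr3, by contrast, had a log2 difference of -0.47 ± 0.30 (edgeR adjusted p = 0.612). The interaction called 2 of 35, both lower, Cbr3 at -5.38 ± 0.58 (edgeR adjusted p = 0.0164) and Abcc4 at -2.98 ± 0.35 (0.0235). They were the only 2 genes that the interaction called among all genes tested. Between EtOH livers 24 of 35 were lower with CCl4 and 2 higher, with a median of -0.99. Over all genes 11% were called lower and 12.7% higher there, with a median of -0.04.

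**Figure D4:**
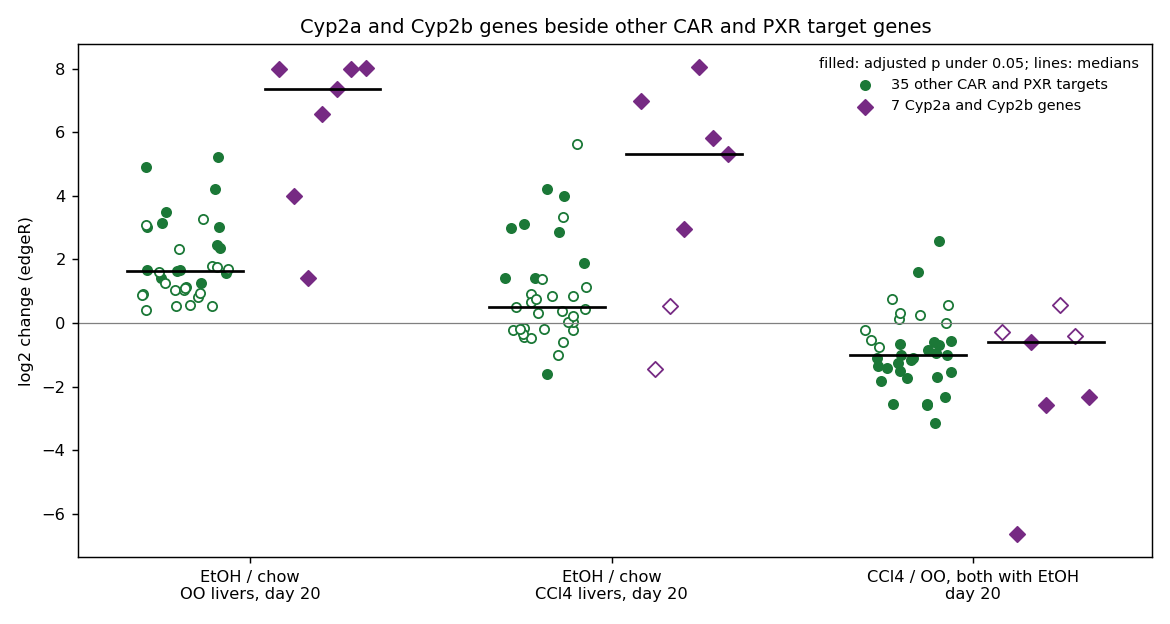
log2 change (edgeR) of 35 other CAR and PXR target genes (circles) and the 7 Cyp2a and Cyp2b genes (diamonds) in the day 20 comparisons EtOH against chow in OO livers, EtOH against chow in CCl4 livers, and CCl4 against OO livers with EtOH, with filled points for an adjusted p under 0.05 and lines for medians. The medians of the 35 genes are 1.63, 0.51 and -0.99, and those of the 7 genes are 7.35, 5.31 and -0.61.

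Because Cyp2a4, Cyp2b9 and Cyp2b13 are female-biased genes measured here in males, other sex-biased liver genes were counted. Of 16 male-biased genes, 0 were called higher and 12 lower with EtOH in CCl4 livers (median log2 change -2.46), and 0 higher and 4 lower with EtOH in OO livers (median -0.96). Over all genes 0.501% were called higher and 0.765% lower in CCl4 livers, and 1.22% and 2.42% in OO livers. The OO comparison has 1 chow library and the CCl4 comparison 2. Hsd3b5, a male-specific steroid enzyme, averaged 0.153 ± 0.027 CPM in CCl4 EtOH livers (SD, n = 3) and 29.5 ± 16.0 CPM in CCl4 chow livers (SD, n = 2; log2 change -7.51 ± 0.69, edgeR adjusted p = 0.000347). Of 19 female-biased genes tested outside the family, 3 were higher and 0 lower with EtOH in CCl4 livers (Prom1, Cyp17a1 and Cyp3a44; median 3.45), and 1 higher and 0 lower with EtOH in OO livers (Acot3; median 2.00). The interaction called 0 of the 16 male-biased and 0 of the 19 female-biased genes. Between EtOH livers 9 of the 19 were higher with CCl4 and 1 lower, the sulfotransferase Sult3a1 (median 2.59). Of the 16 male-biased genes 0 were higher and 12 lower there (median -1.62), where 12.7% of all genes were called higher and 11% lower. Among the female-biased members Cyp2b13 was called lower there (log2 change -2.33), and Cyp2a4 and Cyp2b9 were not called.

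Targets of NRF2, the oxidative stress factor also known to act on Cyp2a5 in the mouse, were called higher in 2 of 10 (Nqo1 and Srxn1) and lower in 1 (G6pdx) with EtOH in OO livers. With EtOH in CCl4 livers 0 of 10 were called. Over all genes 1.22% were called higher and 2.42% lower with EtOH in OO livers. With CCl4 between EtOH livers the shares were 12.7% higher and 11% lower. Between EtOH livers 1 was higher and 4 lower with CCl4, among them Nqo1 at 15.1 ± 6.70 CPM in CCl4 EtOH livers and 39.4 ± 6.16 CPM in OO EtOH livers (SD, n = 3 each; log2 change -1.38 ± 0.30, edgeR adjusted p = 0.00747). The gene of the factor itself, Nfe2l2, averaged 132 ± 22.1 CPM in CCl4 EtOH livers and 78.6 ± 14.2 CPM in OO EtOH livers (SD, n = 3 each; log2 change 0.75 ± 0.18, edgeR adjusted p = 0.0113).

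Other P450 genes of the same stretch of chromosome 7 were called in neither comparison of EtOH with chow. Cyp2f2, which lies beside Cyp2a12, averaged 646 ± 90.6 CPM in OO EtOH livers (SD, n = 3) and 695 CPM in the OO chow liver (log2 difference -0.10 ± 0.22, edgeR adjusted p = 0.84). In CCl4 livers it averaged 630 ± 45.9 CPM with EtOH and 763 ± 162 CPM with chow (-0.28 ± 0.17, edgeR adjusted p = 0.603). Cyp2g1, Cyp2s1 and Cyp2t4 reached at most 2.34 CPM in any library and were among those not called. Between EtOH livers Cyp2g1, which lies just before Cyp2a5, was called lower with CCl4, as Cyp2a5 was. It averaged 0.0562 ± 0.0487 CPM in CCl4 EtOH livers and 0.816 ± 0.52 CPM in OO EtOH livers (SD, n = 3 each; edgeR adjusted p = 0.00942), a level of a few counts. No other gene of that list was called there. Cyp2b19 and Cyp2b23, which lie between Cyp2a4 and Cyp2a5, had 0 counts in all 15 libraries.

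The genes whose pattern over the 8 group means was most like that of a member were ranked among 12402 genes by the root mean square difference of centred log2 CPM. For Cyp2a12 they were Comtd1 at 0.13, Hacd1 at 0.14 and Gpx4, a lipid peroxide reductase, at 0.15. For Cyp2a5 they were the sulfotransferase Sult2a7 at 0.97, the P450 gene Cyp2c38 at 1.19 and Sult3a1 at 1.19, all closer than its nearest fellow member Cyp2a12 at 1.90. Cyp2c38 stood at 0.548, 0.429 and 1.52 CPM in CCl4 EtOH livers and at 55.6, 46.5 and 57.9 CPM in OO EtOH livers. For Cyp2b10 the nearest gene was Cyp2a4 at 0.60, and the nearest outside the family were Myh4 at 1.90, Acot3 at 1.93 and Myh2 at 2.03. Myh4 and Myh2 encode skeletal muscle myosins, and Myh4 reached 113 CPM in library 14, 48.6 CPM in library 20 and 23.2 CPM in library 6, against at most 7.61 CPM in the other 12. Cyp2b10 was high in all 7 EtOH libraries. These likenesses are descriptions over 8 groups that share their libraries.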

How the data were processed

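Liver RNA of 15 samples was made into TruSeq mRNA libraries, per the labels' protocols. The authors deposited 1 table of raw counts by gene symbol for each library, aligned with GSNAP to mm10 per the submitters' processing notes, which also name DESeq2 1.12.3. Counting program, annotation, strand setting and read length are not stated in these sources. The 5 entries per table for reads given to no gene, 47.0% to 58.6% of the reads listed, entered neither library sizes nor tests. Among them, reads with more than 1 alignment were 18.1% to 28.8% of the reads listed. The day was taken from the labels (20 or 23), although table names carry 28D.

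From the deposited counts, filterByExpr kept 14778 genes. TMM factors scaled the libraries, and edgeR 4.0.16 (R 4.3.3) estimated a mean for each group from all 15 libraries, with 7 residual degrees of freedom. The quasi-likelihood test was adjusted by Benjamini-Hochberg over all genes in each of 7 comparisons, and an adjusted p under 0.05 is called. CPM are TMM-normalised, errors on CPM are SD between libraries and those on log2 changes are SE. The SE was worked back from the test, as the unsigned log2 change over the square root of the F statistic. It is thus an approximation. Replicate libraries differed beyond counting error (chi-square per degree of freedom 3.93 to 78.4), so none was counted as a duplicate. The fit was tested on simulated data. Changes were planted in a single group, in genes above a floor of mean CPM, with means otherwise equal between groups. Genes at a few counts in some groups, as Cyp2a4, Cyp2a22, Cyp2b9 and Cyp2b13 were on chow, were thus not imitated. False calls are the share of all calls that had not been planted. For EtOH in OO livers the fit called 26% of 2-fold and 89% of 4-fold changes, with 4.17% false calls. For the interaction it called 10% of 2-fold and 66% of 4-fold changes, with 6.17% false calls, so smaller differences would mostly be missed there.

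Members and gene lists were chosen with earlier results of these data known. All 7 members are described. Other genes named are the 3 nearest in pattern to Cyp2b10, Cyp2a5 and Cyp2a12, the genes Nr1i3, Nr1i2, Por, Nfe2l2 and Hnf4a, and up to 4 called genes with the smallest p per list. The list of neighbouring P450 genes also held Cyp2ab1, which lies on chromosome 16. Symbols matched GENCODE M21 for 23680 of 24499 rows. Promoters came from RefSeq (GRCm38.p6). Alternatives were RLE scaling, no or another filter, DESeq2 1.42.0, limma-voom (limma 3.58.1), also with a random block for lane, fewer or merged libraries, and each library left out. Leaving out library 6 and other gene lengths were added after seeing the data. So were the Cyp2a4 to Cyp2a5 ratio, its permutation test and the ratio per gene-specific stretch.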

Additional observations from a re-analysis of the deposited data

Results flagged for a closer look

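Every EtOH library lay below chow for Cyp2a5 in CCl4 mice and above chow in OO mice, and this is what drew attention to it. In CCl4 mice the 3 EtOH libraries lay at 13.8 to 51.0 CPM and the 2 chow libraries at 82.5 to 92.2 CPM, a difference that was not called (edgeR adjusted p = 0.139). In OO mice the 3 EtOH libraries lay at 2761 to 3450 CPM and the chow library at 200.3 CPM, a difference that was called (edgeR adjusted p = 0.00988). The difference of the 2 effects, CCl4 minus OO, was -5.44 on the log2 scale, and the test of that difference did not pass the threshold over all genes (edgeR adjusted p = 0.0701).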

How the results depend on the processing

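Of 597 alternative values, 534 kept their direction and their side of the threshold, 27 passed it newly, 25 no longer passed it and 11 reversed, all 11 for members that were not called. Left out of this tally, for few or no counts, were Cyp2b9 and Cyp2b13 at day 0. Cyp2b13 was also left out for CCl4 under chow, for day 20 against day 0 and for the interaction. The number of members called was 7 for EtOH in OO livers, 5 with limma-voom with or without lane as a random block, and 3 in a fit of only the libraries compared. For EtOH in CCl4 livers it was 5, and 2 with limma-voom, 3 with limma-voom and lane as a random block, and 2 to 6 with each library left out. DESeq2 kept those 5 and also called Cyp2a12 higher (log2 change 0.52, DESeq2 adjusted p = 0.0463) and Cyp2a5 lower (-1.455, DESeq2 adjusted p = 0.00813). For CCl4 under EtOH the number called was 4, and 3 to 5 with each library left out. Counts of 0 became 1 at day 0 (no filter, DESeq2, only the libraries compared). They became 1 for CCl4 under chow with DESeq2 or with library 5 in place of library 12, and 2 with only the libraries compared. For CCl4 chow livers at day 20 against day 0 they became 2 with DESeq2 or only the libraries compared, and ran from 0 to 1 with each library left out. For the interaction they became 4 with DESeq2, 1 with no filter, with limma-voom with or without the lane block and with libraries 5 and 12 together, and 0 to 1 with each library left out. Reversed log2 values were 0.0042 for Cyp2a5 at day 0 with limma-voom, and -0.27 for Cyp2a4 under chow and 0.0011 for Cyp2a4 in the interaction, both with library 5 in place of library 12. With each library left out, those that changed sign ran from -0.46 to 0.48 (Cyp2a5 at day 0), -0.70 to 0.17 (Cyp2a4 under EtOH), -2.88 to 0.84 (Cyp2b9 under chow), -0.32 to 0.91 (Cyp2a4) and -0.26 to 0.58 (Cyp2b10) for day 20 against day 0, and -0.23 to 3.45 (Cyp2b9 in the interaction). The cause was not tested. No paired analysis was possible because the labels number every library differently. Members at a few counts on chow (Cyp2a4, Cyp2a22, Cyp2b9 and Cyp2b13) have large errors on their log2 changes, and each OO EtOH value rests on 1 chow library.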
